A study of Mus musculus with 20 samples.

Results

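The comparison described here is the organ difference in the JQ1 response, that is, the change produced by JQ1 in kidney minus the change produced by JQ1 in liver at the end of dosing. It rests on 12 of the 20 RNA-seq libraries of the series, 3 in each of 4 groups, and the 8 libraries taken after drug withdrawal were left out of the comparison. JQ1 is a small molecule that occupies the acetyl-lysine pocket of the BET bromodomain proteins. In the study it was given to block BRDT, the testis member of that family, and kidney and liver were profiled to ask how far other organs respond.

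All 12 libraries came from male DBA/2J mice aged 10 weeks. The kidney JQ1 group and the liver JQ1 group had received JQ1 at 50 mg/kg by intraperitoneal injection every day for 3 weeks, and the kidney vehicle group and the liver vehicle group had received the solvent alone on the same schedule. The solvent was DMSO diluted in an aqueous cyclodextrin solution, so every animal was exposed to it. DBA/2J is an inbred strain. The labels number the libraries 1 to 3 in each group and do not say whether a kidney and a liver library with the same number came from 1 mouse. They also do not name the animal behind each library, so the p-values measure the spread among these libraries.

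Between 12678283 and 26895318 reads were assigned to genes per library. Mitochondrially encoded genes took 24.5% to 26.7% of the kidney reads and 16.7% to 19.2% of the liver reads. The organ labels held against their markers. The 13 liver-defining genes summed to between 85890 and 114270 CPM (counts of a gene scaled to a common library total, before TMM scaling) in liver and to between 17.7 and 69.7 in kidney, with Cyp7a1 and Hamp at 0 in all 6 kidney libraries. The 12 kidney-defining genes summed to between 15613 and 22774 in kidney and to between 0.685 and 5.0 in liver, with Aqp2 at 0 in all 6 liver libraries. Relative to the vehicle mean of the organ of origin, liver markers in kidney libraries stood at 0.0199% to 0.0783%, the highest in kidney JQ1 replicate 3, and kidney markers in liver libraries at 0.00335% to 0.0245%, the highest in liver vehicle replicate 2. Kidney JQ1 replicate 1 stood apart from the other kidney libraries in genes of connective tissue, macrophages and fat, picked here after their values were seen. It read 187 CPM (scaled by TMM factors) of the collagen gene Col1a1, against 17.9 and 40.3 CPM in the other 2 kidney JQ1 libraries and 13.7 to 26.1 CPM in kidney vehicle. Lyz2, a macrophage lysozyme, read 253 CPM in it against 15.2 to 46.6 CPM in the other 5 kidney libraries, and Adipoq, the adipocyte hormone adiponectin, read 26.8 CPM against 1.22 to 7.42 CPM. Its 12 adipocyte markers summed to 2020 CPM against 662 to 1276 CPM. Without this library 216 genes were called in kidney, 435 in liver and 103 for the organ difference, 85 of them among the 104 called with it. In whole-organ RNA, fewer cells of a type and less RNA per cell cannot be told apart.

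The BET proteins of somatic cells read acetylated histone tails at promoters and enhancers and bring the elongation machinery to RNA polymerase II, and genes that depend on large enhancers, such as those defining a cell's identity or its response to cytokines, are known to be sensitive to their displacement. The proximal tubule of the kidney and the hepatocyte of the liver share many such genes, among them enzymes that conjugate and oxidise drugs and steroids and transporters for organic anions, but each organ controls them through its own set of factors.

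Of 16899 genes tested, 12696 were expressed in both organs, here meaning a mean of at least 1 CPM in at least 1 group of each. JQ1 changed 272 genes in kidney (1.61% of those tested), of which 73 rose (0.432%) and 199 fell (1.18%), and 323 genes in liver (1.91%), of which 160 rose (0.947%) and 163 fell (0.965%), by edgeR quasi-likelihood test at a Benjamini-Hochberg adjusted p below 0.05. The change differed between the organs for 104 genes (0.615%). In 34 of these (0.201%) the kidney change lay above the liver change, and in 70 (0.414%) it lay below. At an unadjusted p below 0.05 the count was 1589. The median standard error of a log2 fold change over genes expressed in both organs was 0.159 in kidney and 0.174 in liver, and that of the difference was 0.239, so the test of the difference needed a larger effect than either test within an organ.

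The calls of the 2 organs overlapped in 37 genes, which was 13.6% of the kidney calls and 11.5% of the liver calls. Responses were sorted into 4 classes by the 3 tests. A shared response was called in both organs in the same direction, which held for 34 genes (0.201% of those tested). An opposite response was called in both organs in opposite directions with the difference called as well, which held for 3 genes (0.0178%). A kidney-limited response was called in kidney and for the difference but not in liver, which held for 57 genes (0.337%), and a liver-limited response was the mirror image, with 38 genes (0.225%). For the kidney-limited genes the 95% interval of the liver change lay within 0.5 log2 units of 0 in 36 of 57, and for the liver-limited genes the interval of the kidney change lay within that range in 16 of 38. The remaining 21 and 22 genes could have moved by more than that in the other organ without being detected.

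**Figure D1:**
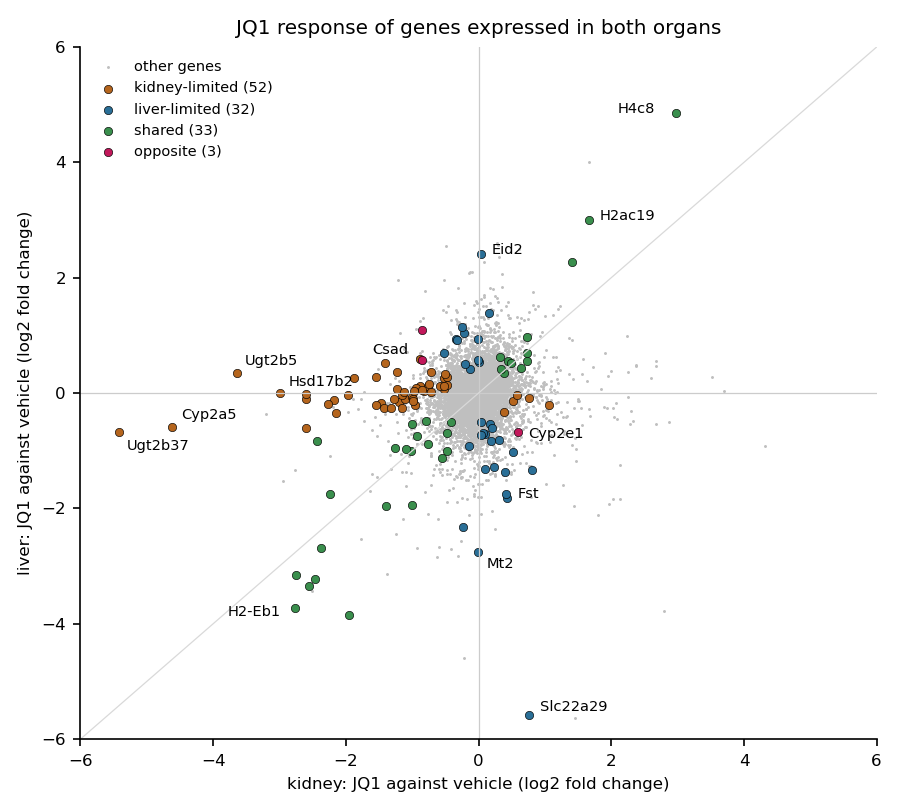
Log2 fold change of JQ1 against vehicle in kidney (x axis) and in liver (y axis) for genes expressed in both organs, each point 1 gene, coloured by response class, with the number of genes of each class expressed in both organs in the legend. Of the 12696 genes, 7 lie outside the axes, 1 of them liver-limited. Kidney-limited genes lie along the horizontal line at 0, 47 of them on its left arm and the 5 that rose on its right, liver-limited genes along the vertical line, and shared genes near the diagonal.

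A call in 1 organ alone did not amount to a difference between organs. Another 178 genes were called in kidney and neither in liver nor for the difference, and another 248 were called in liver and neither in kidney nor for the difference. Among genes expressed in both organs, 57.9% had the same sign of change in kidney and liver. Among the genes called in kidney the share was 66.9%, and among those called in liver it was 70.0%. Over the 12696 genes the Pearson correlation of the 2 sets of fold changes was 0.13, given as a description across genes, which are not independent.

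The shared falls included 4 genes of MHC class II antigen presentation, the molecules with which dendritic cells, macrophages and B cells display peptides to helper T cells. H2-Aa and H2-Ab1 encode the chains of the I-A molecule, H2-Eb1 a chain of the I-E molecule, and Cd74 the invariant chain that escorts them. H2-Aa read 62.6, 84.4 and 29.3 CPM (scaled by TMM factors, as are all per-library CPM from here on) in the 3 kidney vehicle libraries and 7.92, 8.47 and 9.68 CPM in the 3 kidney JQ1 libraries. In liver it read 55.1, 35.9 and 71.3 CPM with vehicle and 5.69, 7.30 and 5.22 CPM with JQ1. Every JQ1 library lay below every vehicle library in each organ, and the vehicle libraries were themselves unequal, with kidney replicate 3 and liver replicate 2 the lowest of their groups. H2-Aa fell by 2.75 ± 0.39 on the log2 scale in kidney (standard error, n = 3 against 3, adjusted p = 0.0112) and fell by 3.16 ± 0.47 in liver (adjusted p = 0.0123). The kidney change minus the liver change was 0.40, with a 95% interval from -0.98 to 1.79.

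The other 3 genes were called in both organs as well. H2-Eb1 fell by 2.77 in kidney (adjusted p = 0.0176) and fell by 3.73 in liver (adjusted p = 0.0131). H2-Ab1 fell by 2.55 in kidney (adjusted p = 0.0472) and fell by 3.35 in liver (adjusted p = 0.0402), and of the 12 fits that each left out 1 library its call was lost in 9 in kidney and in 9 in liver. Cd74 fell by 2.37 in kidney (adjusted p = 0.00783) and fell by 2.69 in liver (adjusted p = 0.0126). The calls were close to the threshold for all 4 genes. In the 12 fits without 1 library the H2-Aa call was lost in 3 in kidney and 2 in liver, that of H2-Eb1 in 3 and 3, and that of Cd74 in 1 and 3. Without kidney JQ1 replicate 1 none of the 4 was called in kidney, with a change in H2-Aa of -2.70 (adjusted p = 0.0603), in H2-Eb1 of -2.64 (adjusted p = 0.0916), in Cd74 of -2.38 (adjusted p = 0.054) and in H2-Ab1 of -2.38 (adjusted p = 0.172), so the size of the change stayed near that with all libraries. With limma-voom H2-Eb1, Cd74 and H2-Ab1 were not called in either organ and H2-Aa was not called in liver. With each organ fitted apart H2-Aa and H2-Eb1 were not called in kidney and H2-Ab1 was not called in either organ. Of the 8 genes of the class II list that could be tested, these 4 fell in kidney, the same 4 fell in liver and none was called for the difference. The median change of the 7 genes of the list expressed in both organs was -2.37 in kidney and -2.69 in liver, against medians of 0.0095 and -0.0040 over all 12696 genes.

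The promoters of 2 of these genes are shown because the class II genes moved together in both organs and are known to share a conserved promoter module. The 250 bases before the RefSeq start are given 5′ to 3′ on the gene's strand from GRCm38.p6, a C57BL/6J reference that may differ from DBA/2J, with the inverted CCAAT element TGATTGG, the core of the Y box, in capitals. H2-Aa lies on the minus strand at chr17:34287824-34288073 and H2-Eb1 on the plus strand at chr17:34305617-34305866.
H2-Aa: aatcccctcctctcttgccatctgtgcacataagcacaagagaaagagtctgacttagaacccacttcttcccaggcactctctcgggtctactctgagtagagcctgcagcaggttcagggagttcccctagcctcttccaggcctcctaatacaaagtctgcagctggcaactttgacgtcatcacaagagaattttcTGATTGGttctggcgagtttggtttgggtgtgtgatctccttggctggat
H2-Eb1: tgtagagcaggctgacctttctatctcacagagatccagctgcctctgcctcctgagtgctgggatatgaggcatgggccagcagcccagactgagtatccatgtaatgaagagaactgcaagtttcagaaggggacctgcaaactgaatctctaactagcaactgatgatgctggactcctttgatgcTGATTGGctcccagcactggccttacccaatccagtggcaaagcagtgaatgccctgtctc

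The element began 50 bases before the start in H2-Aa and 61 bases before it in H2-Eb1. On either strand it occurred in 7.23% of the 32851 promoter windows of the same length, and its presence in these windows is a description of the sequence.

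Summed markers of T and NK cells and of B and plasma cells were lower with JQ1 in both organs, as the class II genes were. Those of other immune cells were not. The 20 T and NK cell markers summed to between 13.7 and 25.4 CPM of all reads in kidney vehicle and between 7.50 and 11.6 in kidney JQ1, and to between 7.82 and 9.38 in liver vehicle and between 1.95 and 2.95 in liver JQ1, with Gzmb at 0 in all 6 liver libraries. The 14 B and plasma cell markers summed to between 13.1 and 23.2 in kidney vehicle and between 5.59 and 11.5 in kidney JQ1, and to between 14.5 and 38.6 in liver vehicle and between 3.31 and 6.58 in liver JQ1, with Ighg2c at 0 in all 12 libraries. The 18 markers of dendritic cells and macrophages summed to between 118 and 160 in kidney vehicle and to 520, 104 and 154 in kidney JQ1 replicates 1 to 3, and to between 201 and 255 in liver vehicle and between 181 and 227 in liver JQ1. Their median kidney change over the 13 expressed in both organs was 0.64 with all libraries and -0.14 without kidney JQ1 replicate 1. None of these 18 markers was at 0 throughout either organ, and of the 14 that could be tested none was called in either organ. Of the 20 T and NK cell markers 5 could be tested, and 1 fell in each organ. Over the 3 of them expressed in both organs the kidney change lay above 0 in 1 and the liver change in none. Of the 14 B and plasma cell markers 7 could be tested, with no call in kidney and 1 fall in liver. The 10 neutrophil markers summed to between 8.27 and 9.20 in kidney vehicle and between 12.7 and 23.1 in kidney JQ1, and overlapped in liver. The sums of the 7 Kupffer cell markers overlapped in both organs. The part of these markers in the class II result was not tested. Ccl5, a chemokine made by T and NK cells, fell by 2.46 in kidney (adjusted p = 0.00908) and fell by 3.22 in liver (adjusted p = 0.0223), from 1.65 to 3.46 CPM and from 1.02 to 1.66 CPM with vehicle to at most 0.724 and 0.203 CPM with JQ1, and its call was lost in 2 of the 12 fits without 1 library in kidney and in 4 in liver. Irf5, an interferon regulatory factor of myeloid cells that was picked after its values were seen, fell by 1.01 in each organ (adjusted p = 0.0111 in kidney and 0.0123 in liver).

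The shared response was led in the rising direction by replication-type histone genes. H4c8 encodes histone H4. It read 8.15, 4.23 and 5.83 CPM in kidney vehicle and 41.8, 52.9 and 47.7 CPM in kidney JQ1, and 2.14, 1.58 and 0.696 CPM in liver vehicle and 33.4, 40.1 and 50.2 CPM in liver JQ1. The groups were far apart in both organs and the JQ1 levels of the 2 organs were close to one another. H4c8 rose by 2.98 ± 0.23 on the log2 scale in kidney (adjusted p = 2.62e-05) and by 4.85 ± 0.38 in liver (adjusted p = 3.55e-05), and the difference of -1.87 was not called (adjusted p = 0.0933). H2ac19, a histone H2A gene, rose by 1.66 in kidney (adjusted p = 0.0284) and by 3.00 in liver (adjusted p = 0.00239), and its kidney call was lost in 5 of the 12 fits without 1 library. Of 24 histone genes tested, 2 rose in kidney and 6 rose in liver, against 0.432% and 0.947% of all genes tested. None was called for the difference. In liver the other 4 were H1f2, H2az1, H2bc4 and H3f3a. Histone genes have near-identical copies and most of their transcripts lack the poly(A) tail on which these libraries were selected, so the level of a single gene is uncertain.

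Several other shared genes were metabolic. Fbp1, an enzyme of gluconeogenesis, rose from 255 to 278 CPM to 407 to 461 CPM in kidney and from 352 to 421 CPM to 581 to 674 CPM in liver. Its log2 changes of 0.73 ± 0.09 and 0.69 ± 0.09 (adjusted p = 0.000148 and 0.000539) differed by 0.04, with a 95% interval from -0.23 to 0.31. Gstt1, a glutathione S-transferase, fell by 0.76 in kidney and fell by 0.89 in liver (adjusted p = 0.000105 and 6.32e-05), and the difference was 0.12 with an interval from -0.15 to 0.40. Hsd3b3, which oxidises steroids, fell by 1.00 in kidney and fell by 0.53 in liver. The organic anion transporter Slc22a7 fell by 2.25 in kidney and fell by 1.76 in liver, and its liver call was lost in 8 of the 12 fits without 1 library.

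The bile acid transporter Slc10a2 fell by 1.40 in kidney, a call lost in 6 of those 12 fits, and fell by 1.95 in liver. Ugt3a1, a glycosyltransferase, fell by 0.55 in kidney and fell by 1.12 in liver. Rpl41, a ribosomal protein gene, rose by 0.32 in kidney and 0.63 in liver, and its kidney call was lost in 10 of the 12 fits without 1 library. The unnamed lncRNA gene ENSMUSG00000121034 fell by 1.95 in kidney and fell by 3.85 in liver. Cdx4, a homeobox gene, was present at 0.560 to 1.39 CPM in kidney vehicle and 1.48 to 1.70 CPM in liver vehicle. It fell in both organs (adjusted p = 0.0128 and 0.00324), by the largest fitted amounts of the named shared genes. In kidney Cdx4 fell by 3.08 ± 0.69, a call lost in 4 of the 12 fits without 1 library. In liver 55 counts in the vehicle group stood against 1 count in the JQ1 group, a ratio of 48.5 with a 95% counting interval from 8.35 to 1949.

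Dio1 was the single shared gene for which the size of the change differed between the organs as well. It was picked out after its values were seen. Dio1 encodes the deiodinase that activates thyroid hormone in both organs. It read 5.35, 5.90 and 9.34 CPM in kidney vehicle and 1.14, 1.33 and 1.35 CPM in kidney JQ1, and 92.4, 98.3 and 91.3 CPM in liver vehicle and 53.1, 53 and 51.8 CPM in liver JQ1. It fell by 2.43 ± 0.20 in kidney and fell by 0.84 ± 0.13 in liver, and the difference of -1.60 ± 0.24 was called (adjusted p = 0.00284).

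**Figure D2:**
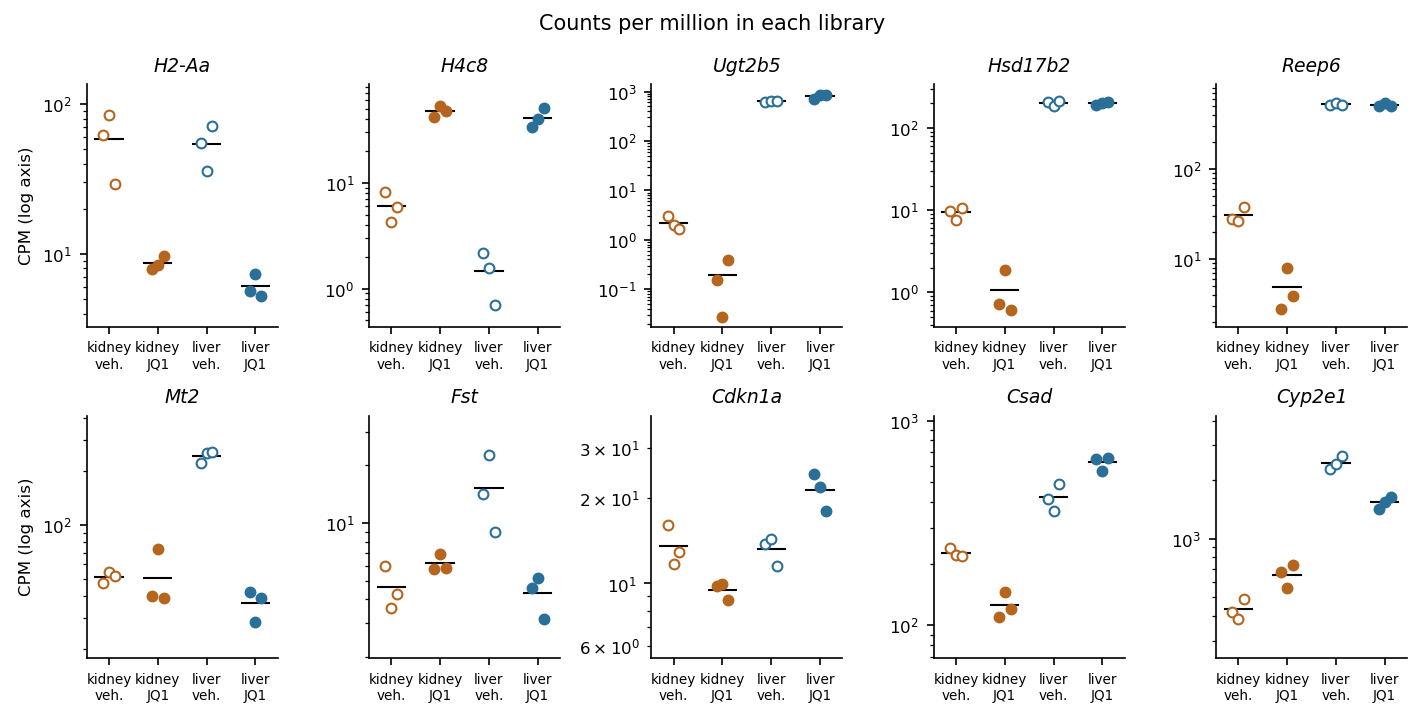
CPM of 10 genes in each of the 12 libraries on a logarithmic axis, with vehicle libraries as open circles, JQ1 libraries as filled circles and the mean of each group as a bar. H2-Aa and H4c8 separate in both organs, Ugt2b5, Hsd17b2 and Reep6 move in kidney from levels far below those of liver, Mt2 and Fst move in liver, and Csad and Cyp2e1 move in opposite directions.

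Opposite responses were met in 3 genes. Csad encodes the decarboxylase that makes hypotaurine on the way to taurine. It read 239, 221 and 218 CPM in kidney vehicle and 110, 145 and 120 CPM in kidney JQ1, and 414, 360 and 492 CPM in liver vehicle and 651, 567 and 658 CPM in liver JQ1. The groups did not overlap in either organ. Csad fell by 0.85 ± 0.12 in kidney (adjusted p = 0.000394) and rose by 0.57 ± 0.12 in liver (adjusted p = 0.0131), and the difference was -1.42 ± 0.16 (adjusted p = 0.000408).

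Cyp2e1, the cytochrome P450 that oxidises ethanol and acetone, went the other way. It read 423, 389 and 487 CPM in kidney vehicle and 672, 555 and 730 CPM in kidney JQ1, against 2282, 2408 and 2656 CPM in liver vehicle and 1420, 1548 and 1637 CPM in liver JQ1. It rose by 0.59 ± 0.11 in kidney (adjusted p = 0.00721) and fell by 0.67 ± 0.11 in liver (adjusted p = 0.00301), and the difference was 1.26 ± 0.16 (adjusted p = 0.000508). The third, the lncRNA gene Gm15638, fell by 0.85 in kidney and rose by 1.1 in liver, with a difference of -1.95 ± 0.27 (adjusted p = 0.00151). The difference for each of the 3 genes stayed called in all 12 fits that left out 1 library.

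For other genes the sign differed between the organs and the difference was called, but 1 of the organs missed the threshold. Cdkn1a, which encodes the cell cycle inhibitor p21, read 16.1, 11.8 and 12.9 CPM in kidney vehicle and 9.78, 9.94 and 8.72 CPM in kidney JQ1, and 13.7, 14.4 and 11.5 CPM in liver vehicle and 24.3, 21.8 and 18 CPM in liver JQ1. It rose by 0.70 ± 0.16 in liver (adjusted p = 0.0234), while its kidney change was -0.51 ± 0.15 (adjusted p = 0.109). Slc2a5, the fructose transporter GLUT5, fell by 1.33 ± 0.31 in liver (adjusted p = 0.0371), while its kidney change was 0.80 ± 0.20 (adjusted p = 0.0546). Slc35f1 was at 0 in all 3 liver vehicle libraries and read 1.56, 0.912 and 1.30 CPM in liver JQ1, at least 14.4-fold higher when the vehicle group is set to a floor of 3 counts, while its kidney change was -1.12 ± 0.27 (adjusted p = 0.0521). Klhl8 fell by 0.89 in kidney (adjusted p = 0.0387) with a liver change of 0.60 (adjusted p = 0.267), and its called difference was lost in 10 of the 12 fits without 1 library. The processed pseudogene Gm47842 fell by 1.41 in kidney with a liver change of 0.52 (adjusted p = 0.449), and its called difference was lost in 4 of those fits. A further 5 genes were called for the difference and in neither organ, namely Pdzrn3, Dnajc12, Gm2a, Mgll and Pakap, a count whose members fell outside the naming rule.

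The kidney-limited response was a loss of expression. Of its 57 genes, 52 fell and 5 rose, and 52 of the 57 were expressed in both organs. Among genes expressed in both organs the 4 largest kidney-limited differences were those of enzymes that conjugate or oxidise steroids and drugs. Ugt2b37, a glucuronosyltransferase, read 170, 121 and 191 CPM in kidney vehicle and 3.88, 2.78 and 4.8 CPM in kidney JQ1. In liver it read 2.63, 3.62 and 2.55 CPM with vehicle and 1.56, 2.94 and 0.978 CPM with JQ1, so the kidney level dropped to about that of liver. It fell by 5.42 ± 0.25 in kidney (adjusted p = 1.03e-06), its liver change was -0.67 with a 95% interval from -1.65 to 0.31, and the difference was -4.75 ± 0.51 (adjusted p = 0.00362).

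Ugt2b5, of the same family, was a liver gene in these libraries, with 613 to 648 CPM in liver vehicle and 703 to 867 CPM in liver JQ1. In kidney it read 3.06, 2.00 and 1.65 CPM with vehicle and 0.155, 0.0278 and 0.392 CPM with JQ1. It fell by 3.65 ± 0.58 in kidney (adjusted p = 0.00122), and the difference was -3.99 ± 0.61 (adjusted p = 0.00362). Its highest kidney JQ1 value came from replicate 3, the library with the most liver marker RNA. Ugt1a7c fell by 0.52 in kidney (adjusted p = 0.00286) and its liver change was 0.12. Of 16 genes tested in the glucuronosyltransferase list, which includes Ugdh, 5 fell in kidney and none rose, and 3 fell and 1 rose in liver. Over all genes tested, 1.18% fell and 0.432% rose in kidney, and 0.965% fell and 0.947% rose in liver. Of the list 4 were called for the difference, all with the kidney change below the liver change, against 0.414% of all genes tested. The fourth, and the 1 that rose in liver, was Ugdh, which makes the glucuronic acid donor and is not a transferase. Ugdh rose by 0.58 ± 0.08 in liver (adjusted p = 0.00103) with a kidney change of -0.01. The called difference was lost in 5 of the 12 fits without 1 library for Ugt1a7c and in 6 for Ugdh. Members of the Ugt2b and Cyp2 families share long stretches of sequence, so the split of reads between them is uncertain.

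Among the cytochromes P450, Cyp2a5, a coumarin hydroxylase, read 64.5, 55.4 and 94.8 CPM in kidney vehicle and 3.16, 2.89 and 2.75 CPM in kidney JQ1. Its liver values of 162, 259 and 145 CPM with vehicle overlapped those of 60.8, 129 and 185 CPM with JQ1. It fell by 4.61 ± 0.50 in kidney (adjusted p = 0.00278), its liver interval ran from -1.51 to 0.32, and the called difference of -4.02 (adjusted p = 0.0372) was lost in 11 of the 12 fits without 1 library. Cyp2d26 fell by 1.27 ± 0.14 in kidney (adjusted p = 7.62e-05) and its liver change was -0.10. Of 39 P450 genes tested, 4 fell and 1 rose in kidney, and 8 fell and 2 rose in liver. The shares over all genes tested were 1.18% and 0.432% in kidney and 0.965% and 0.947% in liver. The difference was called for Cyp2a5, Cyp2d26 and Cyp2e1, and for 0.615% of all genes tested.

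Hsd17b2 encodes the dehydrogenase that inactivates oestradiol and testosterone. It read 9.93, 7.67 and 10.7 CPM in kidney vehicle and 0.724, 1.89 and 0.610 CPM in kidney JQ1, while its liver libraries stood between 183 and 212 CPM with vehicle and between 193 and 208 CPM with JQ1. It fell by 2.99 ± 0.30 in kidney (adjusted p = 0.000176) against a liver change of 0.01 with an interval from -0.40 to 0.41, and the difference of -2.99 ± 0.35 (adjusted p = 0.0027) was called in all 12 fits without 1 library. Akr1d1, the 5-beta-reductase of bile acid and steroid metabolism, fell by 0.76 ± 0.15 in kidney with a liver change of 0.13, and its called difference was lost in 7 of the 12 fits without 1 library. Of 24 steroid dehydrogenase and reductase genes, 4 fell in kidney and 4 fell in liver, with Hsd3b3 common to both. Hsd17b2 was the 1 gene of this list called for the difference. Over all genes tested 1.18% fell in kidney, 0.965% fell in liver and 0.615% were called for the difference.

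Some genes known for sex-biased or hormone-controlled expression were kidney-limited. Prlr, the prolactin receptor, read 34.7, 35.9 and 47.4 CPM in kidney vehicle and 8.38, 5.14 and 6.32 CPM in kidney JQ1, and between 90.5 and 150 CPM in all 6 liver libraries with the groups overlapping. It fell by 2.60 ± 0.25 in kidney (adjusted p = 0.000706), and the difference was -2.49 ± 0.34 (adjusted p = 0.0109). Timd2, a receptor for H-ferritin, had the smallest adjusted p of the named differences. It read 38.5, 39.3 and 42.1 CPM in kidney vehicle and 6.52, 10.0 and 7.93 CPM in kidney JQ1, fell by 2.27 ± 0.12 (adjusted p = 3.63e-09), and changed by -0.20 in liver with an interval from -0.44 to 0.04. The difference was -2.07 ± 0.17 (adjusted p = 3.41e-06). Of 15 genes listed as male-biased in kidney, 3 fell and none rose in kidney, against 1.18% and 0.432% of all genes tested. The difference was called for Timd2, Ugt2b37 and, with a fall in liver alone, Acy3. Over the 12 listed genes expressed in both organs the median change was -0.35 in kidney and -0.26 in liver. Of these 12, 3 lay above 0 in kidney and 4 in liver.

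**Figure D3:**
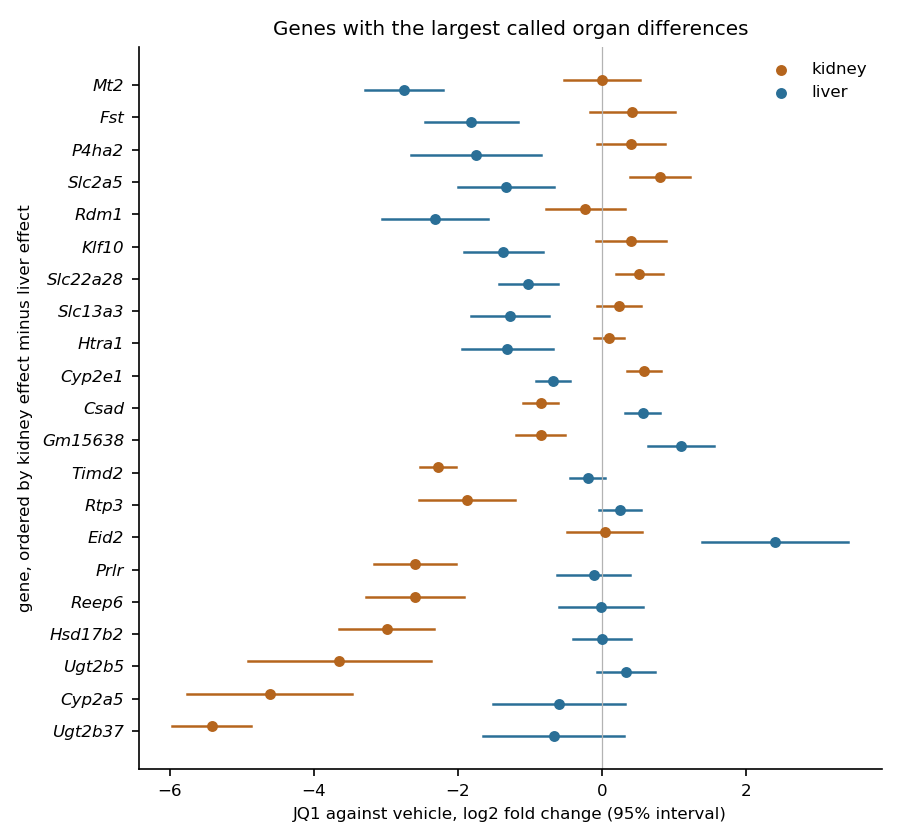
Log2 fold change of JQ1 against vehicle with its 95% interval in kidney and in liver for 21 genes, namely the largest called organ differences among genes expressed in both organs together with the 3 opposite responses, ordered by the difference. Slc22a29 and Slc35f1, with 1 count and 0 counts in a liver group, are not drawn. From Timd2 to Ugt2b37 the liver interval spans 0 for every gene but Eid2, which moves in liver, and from Htra1 to Mt2 the liver interval lies below 0.

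A few genes whose products hepatocytes secrete into plasma were kidney-limited, although most members of their lists were not called. Apob, the structural protein of lipoproteins, fell by 0.72 ± 0.11 in kidney (adjusted p = 0.000846), from 12.3 to 14.5 CPM down to 7.78 to 9.02 CPM, while its liver change was 0.36 ± 0.10 (adjusted p = 0.0624). The difference was -1.07 ± 0.14 (adjusted p = 0.00088), a call lost with length-scaled TPM counts and in a fit over all 20 libraries. Cfb, complement factor B, read 168, 165 and 161 CPM in kidney vehicle and 79.8, 90.6 and 95.9 CPM in kidney JQ1, and fell by 0.89 ± 0.10 (adjusted p = 3.7e-05) with a liver change of 0.12. Proc, which encodes the anticoagulant protein C, fell by 0.96 in kidney with a liver change of -0.20, and F13b, a subunit of coagulation factor XIII, fell by 0.99 with a liver change of -0.10. Itih2, an inter-alpha-trypsin inhibitor chain, fell by 1.43 in kidney with a liver change of -0.27, and its called difference was lost in 6 of the 12 fits without 1 library.

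Most genes of these kinds did not pass the test. Of 28 hepatocyte secreted protein genes, 2 fell in kidney and 1 fell in liver, while over the 18 expressed in both organs the median kidney change was 0.37 and 13 of 18 lay above 0. Of 23 coagulation genes 3 fell in kidney and none was called in liver, and of 24 complement genes 2 fell in kidney and none was called in liver. The median kidney change was 0.17 over the 13 coagulation genes expressed in both organs, 7 of them above 0, and -0.04 over the 17 complement genes, 7 of them above 0. Some of the kidney-limited genes were far less abundant in kidney than in liver. The ratio of the kidney to the liver vehicle mean was 0.0138 for Apob, 0.00367 for Itih2 and 0.00353 for Ugt2b5. Liver marker RNA stood at 0.0295%, 0.0199% and 0.0783% of the liver level in the 3 kidney JQ1 libraries and at 0.0289% to 0.0324% in kidney vehicle, and its part in these falls was not tested.

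Further kidney-limited genes belonged to epithelial and lipid functions. Pigr, the receptor that carries polymeric immunoglobulin across epithelia, read 103, 96.9 and 121 CPM in kidney vehicle and 10.4, 24.4 and 17.6 CPM in kidney JQ1, and fell by 2.60 ± 0.23 (adjusted p = 0.00034). In liver the JQ1 libraries of 506, 542 and 543 CPM lay below the vehicle libraries of 741 to 875 CPM, but the change of -0.60 was not called (adjusted p = 0.245). Reep6, which shapes the endoplasmic reticulum, fell by 2.59 ± 0.30 in kidney (adjusted p = 0.00263), from 26.6 to 37.7 CPM down to 2.79 to 7.94 CPM, against a liver change of -0.01. The differences for Pigr and for Reep6 were each lost in 10 of the 12 fits without 1 library. Rtp3 fell by 1.88 in kidney with a liver change of 0.25. Idi1, an isomerase of cholesterol synthesis, fell by 0.86 in kidney (adjusted p = 0.000338) with a liver change of 0.05, and was the 1 gene of 23 in that pathway called for the difference.

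Of 14 markers of tubular injury tested, 2 fell and none rose in kidney, against 1.18% and 0.432% of all genes tested. Over the 13 markers expressed in both organs the median kidney change was 0.05, and 7 of 13 lay above 0. Krt8, a keratin of stressed tubules, read 28.7, 27.7 and 27.3 CPM with vehicle and 18, 20.8 and 16.9 CPM with JQ1 and fell by 0.58 ± 0.10 (adjusted p = 0.002). Sox9, a factor of the regenerating tubule, fell by 1.55 ± 0.32 (adjusted p = 0.0114) from 1.38 to 2.56 CPM down to 0.621 to 0.722 CPM. In liver their changes were 0.12 and 0.28 and neither was called. Of the same 14 markers 1, Cdkn1a, rose in liver. All 3 were called for the difference, and that for Sox9 was lost in 8 of the 12 fits without 1 library.

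The 5 kidney-limited genes that rose were Abcc2, Atp1b1, Ifi30, Acat3 and Gldc. Abcc2, a pump for conjugated organic anions, rose by 0.52 ± 0.10 (adjusted p = 0.00588) from 122 to 140 CPM up to 181 to 201 CPM in kidney and changed by -0.14 in liver, and its called difference was lost in 9 of the 12 fits without 1 library. The other 4 were outside the naming rule and were picked for belonging to this count. Mdk, the growth factor midkine, reached 1 CPM in kidney only. It read 238, 273 and 249 CPM in kidney vehicle and 50.2, 54.6 and 60.5 CPM in kidney JQ1, and at most 0.811 CPM in any liver library. It fell by 2.20 ± 0.13 in kidney (adjusted p = 3.29e-08). Car9, a carbonic anhydrase, fell by 2.31 in kidney (adjusted p = 0.00851). In liver it had 1 count in the vehicle group and 15 in the JQ1 group, a ratio of 17.0 with a counting interval from 2.62 to 716.5. The processed transcript Gm9973 fell by 3.41 in kidney with a liver change of -0.11, and its called difference was lost in 3 of the 12 fits without 1 library. Among genes that reached 1 CPM in liver only, B630019A10Rik fell by 2.43 in kidney from at most 0.790 CPM with vehicle, with the difference lost in 4 of those fits, and Gm45776 fell by 1.44 from at most 1.05 CPM.

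The classes were not sorted by where their genes were expressed without JQ1. A called difference, which the limited classes require, depends on how precisely a gene was measured in both organs, and hence on its level. Over all 12696 genes expressed in both organs, 8.72% had a higher mean TPM in liver vehicle than in kidney vehicle. Among the 47 genes expressed in both organs with a kidney-limited fall the share was 66.0%, that is 31 of 47, and 23 of them were more than 2-fold higher in liver against 3.88% of all genes. The median log2 ratio of liver to kidney TPM was 0.957 for these 47 genes and -1.42 for all genes. Among the 19 liver-limited genes that fell and were expressed in both organs, 5 were higher in liver and 14 higher in kidney, with a median ratio of -2.11. Among the shared genes, 6 of the 21 that fell (28.6%) and 1 of the 12 that rose (8.33%) were higher in liver. The vehicle libraries enter both the ratio and the fold changes, so these shares are descriptions.

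**Figure D4:**
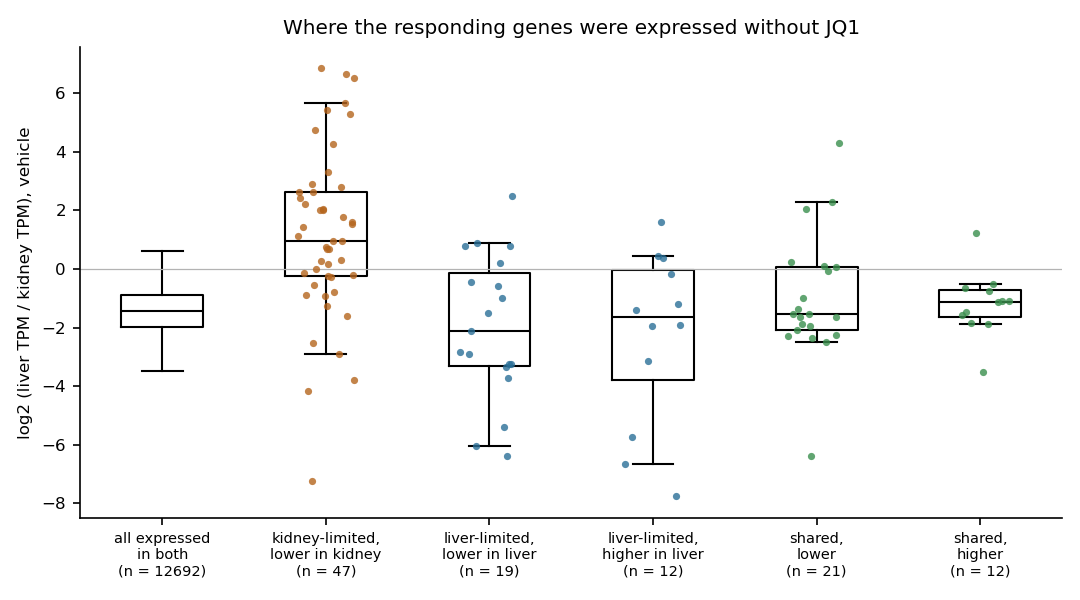
Log2 ratio of the mean TPM in liver vehicle to that in kidney vehicle for all genes expressed in both organs with reads in both vehicle groups and for the response classes, 1 point per gene, with boxes from the lower to the upper quartile, the median as a line and whiskers at the percentiles 5 and 95. The kidney-limited genes that fell centre at 0.957, while all genes centre at -1.42. TPM were not scaled by TMM factors, so the line at 0 does not mark equal scaled levels.

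The liver-limited falls included genes of metal handling, and Mt2 had the largest positive difference among genes expressed in both organs apart from Slc22a29. Mt2 encodes metallothionein, a cysteine-rich protein that binds zinc and copper and is induced by metals and glucocorticoids. It read 224, 255 and 256 CPM in liver vehicle and 42.1, 28.5 and 38.8 CPM in liver JQ1. In kidney it read 47.0, 54.5 and 51.6 CPM with vehicle and 39.7, 73.4 and 38.8 CPM with JQ1, so the kidney groups overlapped. Mt2 fell by 2.75 ± 0.24 in liver (adjusted p = 0.000927), its kidney interval ran from -0.53 to 0.53, and the difference of 2.74 ± 0.34 (adjusted p = 0.00866) was called in all 12 fits without 1 library.

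The neighbouring gene Mt1 moved in the same direction and just missed the threshold for the difference. It is given for comparison, chosen after its values were seen. Mt1 read 176, 197 and 209 CPM in liver vehicle and 60.3, 39.2 and 68.9 CPM in liver JQ1, and between 85.2 and 142 CPM in the kidney libraries. It fell by 1.79 ± 0.23 in liver (adjusted p = 0.00418) with a kidney change of -0.06, and the adjusted p of the difference was 0.0501. The 2 metallothionein genes are close in sequence, so the division of reads between them is uncertain. Slc39a4, a zinc importer, fell by 1.29 ± 0.14 in liver (adjusted p = 9.58e-05), from 63.1 to 81.8 CPM down to 26.3 to 32.9 CPM, and stayed at or below 0.480 CPM in every kidney library, and its called difference was lost in 4 of the 12 fits without 1 library. Of 12 genes of metallothioneins and zinc handling, these 3 fell in liver and Slc39a8 fell in kidney, and Mt2 and Slc39a4 were called for the difference. The same shares over all genes tested were 0.965%, 1.18% and 0.615%.

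The promoters of the metallothionein genes are shown because they carry the metal response elements through which both genes are known to be controlled. The windows are the 250 bases before the RefSeq start on the plus strand of GRCm38.p6, chr8:94172368-94172617 for Mt2 and chr8:94178839-94179088 for Mt1, with matches to the element's core, TGCACNC or TGCGCNC on either strand, in capitals.
Mt2: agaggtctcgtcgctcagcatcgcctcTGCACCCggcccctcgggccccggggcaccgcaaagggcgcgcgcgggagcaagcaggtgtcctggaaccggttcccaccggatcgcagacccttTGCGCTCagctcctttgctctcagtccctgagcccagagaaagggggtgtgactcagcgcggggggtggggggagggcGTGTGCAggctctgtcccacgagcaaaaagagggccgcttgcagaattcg
Mt1: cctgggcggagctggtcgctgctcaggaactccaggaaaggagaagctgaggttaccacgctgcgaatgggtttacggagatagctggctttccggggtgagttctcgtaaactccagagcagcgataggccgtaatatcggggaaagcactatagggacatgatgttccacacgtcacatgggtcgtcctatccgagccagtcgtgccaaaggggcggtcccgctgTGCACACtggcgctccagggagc

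The Mt2 window held 3 matches and the Mt1 window 1, and 21.4% of the 32851 windows of this length held at least 1. Bases after the RefSeq start were not searched. These counts depend on the start used and do not compare the full sets of elements of the genes.

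Other liver-limited falls included regulators of growth and matrix. Fst encodes follistatin, a secreted inhibitor of activin. It read 14.2, 22.6 and 8.97 CPM in liver vehicle and 4.59, 5.17 and 3.15 CPM in liver JQ1, and between 3.63 and 6.89 CPM in kidney with the groups overlapping. It fell by 1.81 ± 0.30 in liver (adjusted p = 0.0042), with a difference of 2.24 ± 0.41 (adjusted p = 0.017). Klf10, a transcription factor induced by TGF-beta, fell by 1.37 ± 0.26 in liver (adjusted p = 0.00984), from 12 to 16.9 CPM down to 5.11 to 6.70 CPM, and its kidney change was 0.40 with an interval from -0.08 to 0.88. P4ha2, a collagen prolyl hydroxylase subunit, fell by 1.75 in liver from 0.876 to 1.78 CPM down to 0.304 to 0.543 CPM, and its kidney change was 0.41. Htra1, a secreted protease, fell by 1.31 in liver with a kidney change of 0.10. Rdm1 fell by 2.32 in liver with a kidney change of -0.23. Of the fits without 1 library, the difference was lost in 4 of 12 for Fst, 6 for Klf10, 8 for Rdm1 and 10 each for P4ha2 and Htra1.

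Liver-limited falls included Slc13a3 and Acy3, genes at home in the kidney tubule, and Slc22a28 and Slc22a29 of the organic anion transporter family. Slc13a3, a sodium-coupled dicarboxylate transporter of the proximal tubule, read 8.86, 4.82 and 7.03 CPM in liver vehicle and 2.94, 2.43 and 3.15 CPM in liver JQ1, against 140 to 218 CPM in kidney. It fell by 1.28 ± 0.25 in liver (adjusted p = 0.0151), and its called difference was lost in 7 of the 12 fits without 1 library. Slc22a28, of the organic anion transporter family, fell by 1.02 ± 0.19 in liver (adjusted p = 0.011) with a kidney change of 0.52 (adjusted p = 0.136). Slc22a29, which is close to Slc22a28 in sequence, had 67 counts in the liver vehicle group and 1 in the liver JQ1 group, a ratio of 59.05 with a counting interval from 10.2 to 2367, and read 0.866 to 3.18 CPM in kidney. Acy3, an aminoacylase of the tubule, fell by 0.71 ± 0.11 in liver (adjusted p = 0.00137), from 68.1 to 80.1 CPM down to 42.9 to 52.6 CPM, with a kidney change of 0.10. Of 39 proximal tubule transport genes tested, 3 fell in liver, 3 rose and 2 fell in kidney, and Slc13a3 was the 1 called for the difference. The same shares over all genes tested were 0.965%, 0.432%, 1.18% and 0.615%.

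Among the liver-limited falls were genes abundant in kidney and barely detected in liver. Spink1, a trypsin inhibitor, read 745 to 1132 CPM in kidney, 0.584, 1.02 and 0.927 CPM in liver vehicle and 0 in all 3 liver JQ1 libraries, at least 8.52-fold lower against a floor of 3 counts over the group. Ren1, renin, read 45.6 to 76.1 CPM in kidney, 0.390, 0.0927 and 1.00 CPM in liver vehicle and 0 in all 3 liver JQ1 libraries, at least 5.29-fold lower, and its called difference was lost in 10 of the 12 fits without 1 library. DBA/2J mice carry a second, nearly identical renin gene that the C57BL/6J reference lacks, so the Ren1 reads may come from both. The 12 kidney-defining genes summed in liver vehicle to between 0.685 and 5.0 CPM of all reads and in liver JQ1 to between 1.1 and 1.55, and liver vehicle replicate 2, the library with the most kidney marker RNA, had the highest Spink1 and the lowest Ren1 of its group. The part of kidney RNA in these falls was not tested. Fgfbp3 had 32 counts in liver vehicle and 1 in liver JQ1, a ratio of 28.2 with a counting interval from 4.71 to 1148, and its called difference was lost in 10 of the 12 fits as well. Lrtm1, a liver gene with at most 0.414 CPM in kidney, fell by 2.22 ± 0.27 in liver (adjusted p = 0.000213).

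Of the 38 liver-limited genes, 25 fell and 13 rose. Eid2, an inhibitor of acetyltransferase-driven differentiation, rose by 2.41 ± 0.48 (adjusted p = 0.00584) from 0.0974 to 0.556 CPM up to 1.30 to 2.64 CPM, and its kidney libraries stood between 5.90 and 7.55 CPM whatever the treatment. The difference for Eid2 was lost in 9 of the 12 fits without 1 library. Susd4, a complement regulator, rose by 0.92 ± 0.15 in liver (adjusted p = 0.00301), from 18.1 to 24.2 CPM up to 38.0 to 43.0 CPM, and its kidney change was -0.32 (adjusted p = 0.537). Where genes whose vehicle level in the lower organ was under 5% of that in the higher organ were set aside, 42 kidney-limited, 29 liver-limited, 32 shared and 3 opposite genes were left.

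Of the 60 gene lists examined, 22 held at least 1 gene called for the organ difference and 11 held no gene called in any comparison. The 18 BET proteins and elongation partners were among the latter, with medians of 0.021 in kidney and -0.052 in liver over the 17 expressed in both organs. The 19 Myc and immediate early genes tested were among them too. Of all 1031 listed genes tested, 29 were called for the difference, which was 2.81% against 0.615% of all genes tested. The lists were drawn up around liver and kidney function with earlier results known, so nothing is read from that share.

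The cytosolic ribosomal proteins, the protein components of the translating ribosome, moved by small and even amounts. Of 75 genes, 32 rose in liver against 0.947% of all genes tested, 1 rose in kidney against 0.432%, and none was called for the difference. Their median change was 0.34 in liver and 0.10 in kidney, and 74 of 75 were above 0 in liver and 63 of 75 in kidney. The median of the difference was -0.25, and 2 of 75 genes lay above 0 for it. The median standard error of a single gene's difference was 0.239 over all genes expressed in both organs. That value bears on calls of single genes and is not the error of a list median. Of the 12 genes listed as raised by BET inhibitors in cultured cells, 1 rose in kidney, and 4 rose and 1 fell in liver. The fall was Txnip, by 0.48.

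Of 18 genes of gluconeogenesis and fructose metabolism, 4 rose in kidney, Fbp1 among them, against 0.432% of all genes tested. In liver Fbp1 rose and Slc2a5 fell, and Slc2a5 was the 1 gene called for the difference. The 31 extracellular matrix genes expressed in both organs had a median of 0.45 in kidney and -0.11 in liver, yet no gene passed the test in kidney and 1, Col4a2, rose in liver. Kidney JQ1 replicate 1 was the highest of the 6 kidney libraries for 22 of these 31 genes, against 24.5% of all genes expressed in both organs, and without it the kidney median was 0.08 and the median difference moved from 0.56 to -0.09. The sulfotransferases and glutathione S-transferases were more even, with 3 of 26 lower in kidney, 4 lower in liver and none called for the difference. Of 13 mitochondrially encoded genes 1 rose in each organ, and of 46 nuclear genes of oxidative phosphorylation 1 rose in kidney and none in liver. Txnip, Col4a2, Slc39a8 and the liver-called histone genes H1f2, H2az1, H2bc4 and H3f3a were named as members of small counts, after their values were seen.

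**Figure D5:**
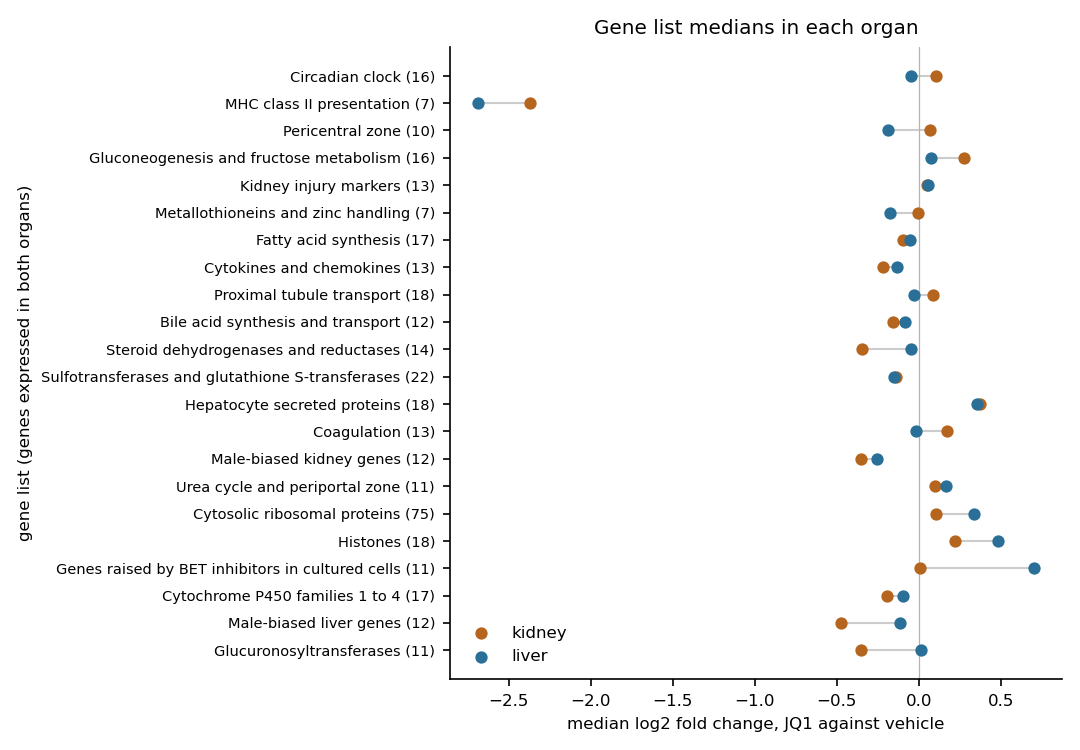
Median log2 fold change of JQ1 against vehicle in kidney and in liver for the 22 gene lists with at least 7 genes expressed in both organs and at least 3 calls, ordered by the median difference, with the number of genes in brackets. The MHC class II list lies at -2.37 and -2.69, apart from the others, and the ribosomal proteins lie at 0.10 in kidney and 0.34 in liver.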

How the data were processed

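Poly(A)-selected RNA from kidney and liver was sequenced as single-end 75-base reads. The authors trimmed reads with fastp 0.20.1 and quantified transcripts with Salmon 1.10.0, and the estimated counts and TPM per transcript that Salmon gave are the values the authors deposited, with replicates kept apart. Their methods name both mm10 and a GENCODE release built on a later assembly, so the transcript set is given as they give it. Groups and times followed the labels, although a supplementary legend swaps the vehicle numbers of the 2 times.

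Here the estimated counts were summed per gene symbol and rounded. Genes were kept by filterByExpr (minimum count 10, minimum total 15), scaled by TMM over the 12 libraries and fitted with edgeR 4.0.16 (R 4.3.3, robust quasi-likelihood, 4 group means). The 3 contrasts were JQ1 minus vehicle in kidney, the same in liver, and the kidney change minus the liver change. All p-values are two-sided and were adjusted by the Benjamini-Hochberg method over the 16899 genes, with a threshold of 0.05. Standard errors use the moderated dispersion. CPM per library are scaled by TMM factors, while summed marker levels are CPM of all reads. TPM, without TMM scaling, served only to compare levels between organs. Counting intervals (95%, exact) and floors cover counting error only.

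Genes were named by rule: the 10 largest called differences of each sign among genes expressed in both organs and the 5 largest among genes expressed in 1, the 10 leading shared responses, the opposite responses, and members of 60 gene lists called for the difference or in both organs. Members and lists were chosen with earlier results of these data known. Deviations of same-numbered kidney and liver libraries from their group means correlated at -0.065 to 0.054, which cannot show whether they came from 1 mouse. Promoter windows came from RefSeq on GRCm38.p6, with motifs chosen after the values were known.

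Alternatives were other scalings, DESeq2 1.42.0, limma-voom (limma 3.58.1), other filters, length-scaled TPM counts, all 20 libraries, each organ fitted apart, replicate blocks and each library left out in turn. On simulated counts for 16553 genes the test of the organ difference recovered 48% of 100 genes changed 2-fold and 90% of 100 changed 4-fold. Unchanged genes made up 10 of its 148 calls. The changed genes had at least 1 CPM in vehicle libraries of both organs and were changed in kidney JQ1 only. The rates do not cover genes low in 1 organ or changes in liver.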

Additional observations from a re-analysis of the deposited data

Results flagged for a closer look

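The JQ1 response differed between kidney and liver for 104 genes by the test of the difference itself. The values that follow are the kidney change minus the liver change on the log2 scale for the named genes among them, so a negative value means that the kidney change lay below the liver change.

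Among kidney-limited genes expressed in both organs the enzymes of conjugation and oxidation stood at -4.75 for Ugt2b37, -4.02 for Cyp2a5, -3.99 for Ugt2b5, -2.99 for Hsd17b2, -1.17 for Cyp2d26, -0.89 for Akr1d1 and -0.64 for Ugt1a7c. Receptors and membrane proteins stood at -2.58 for Reep6, -2.49 for Prlr, -2.13 for Rtp3, -2.07 for Timd2 and -1.99 for Pigr. Genes of secreted plasma proteins stood at -1.16 for Itih2, -1.07 for Apob, -1.01 for Cfb, -0.89 for F13b and -0.76 for Proc. The remaining values were -1.93 for Gm47842, -1.83 for Sox9, -1.48 for Klhl8, -0.90 for Idi1, -0.71 for Krt8 and, in the other direction, 0.66 for Abcc2.

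Among liver-limited genes expressed in both organs the values were 6.35 for Slc22a29, 2.74 for Mt2, 2.24 for Fst, 2.16 for P4ha2, 2.13 for Slc2a5, 2.09 for Rdm1, 1.77 for Klf10, 1.55 for Slc22a28, 1.51 for Slc13a3, 1.42 for Htra1 and 0.81 for Acy3. Those that rose in liver stood at -8.62 for Slc35f1, -2.37 for Eid2, -1.24 for Susd4, -1.22 for Cdkn1a and -0.59 for Ugdh. The opposite responses stood at -1.95 for Gm15638, -1.42 for Csad and 1.26 for Cyp2e1.

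Among genes expressed in 1 organ the values were 7.26 for Spink1, 6.80 for Ren1, 4.77 for Fgfbp3, 4.27 for Lrtm1, 2.69 for Slc39a4, -6.09 for Car9, -3.44 for Mdk, -3.30 for Gm9973, -2.25 for B630019A10Rik and -2.09 for Gm45776. The fitted values of Slc35f1, Spink1 and Ren1, each with a liver group at 0, depend on the small count added in the fit and are no bounds.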

How the results depend on the processing

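There were 104 genes with an organ difference in the JQ1 response, 272 with a kidney response, 323 with a liver response, 34 shared responses, 3 opposite responses, 57 kidney-limited responses and 38 liver-limited responses. DESeq2 gave 216, 517, 589, 75, 12, 97 and 83 in that order, and no filter on low counts gave 455, 681, 807, 101, 46, 179 and 175. With limma-voom the difference count was 62, the kidney count 509, the opposite count 9 and the liver-limited count 13. Length-scaled TPM counts gave 51 for the difference, 176 for kidney, 27 kidney-limited and 18 liver-limited. A fit over all 20 libraries gave 17 for the difference, 118 for kidney, 157 for liver, 18 shared, 10 kidney-limited and 3 liver-limited. TMM within each organ gave 5 opposite genes. The causes of these shifts were not tested. Of the 104 genes, 104 were called again by DESeq2, 103 without the filter, 55 by limma-voom, 47 with length-scaled TPM counts and 16 with all 20 libraries. The differences of Apob, Prlr, F13b, Idi1, Cdkn1a and Susd4 held in all 12 fits without 1 library. They were lost with length-scaled TPM counts and with all 20 libraries, as was that of Krt8. Where only genes of at least 1 CPM in both organs were kept, the liver calls split into 192 higher and 133 lower, and with all 20 libraries into 96 and 61, against 160 and 163. Without the filter the difference split into 252 positive and 203 negative, against 34 and 70. With all 20 libraries it split into 3 and 14. The kidney calls split into 192 higher and 325 lower by DESeq2 and into 290 and 391 without the filter, against 73 and 199.

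Leaving out each library in turn gave 60 to 106 genes for the difference, 153 to 303 for kidney, 173 to 435 for liver, 16 to 39 shared, 1 to 8 opposite, 33 to 58 kidney-limited and 17 to 34 liver-limited. The difference count dropped to 67 without kidney JQ1 replicate 3, 66 and 64 without kidney vehicle replicates 2 and 3, and 60 without liver JQ1 replicate 2. The kidney count dropped to 153, 173 and 159 without kidney JQ1 replicate 3 and kidney vehicle replicates 2 and 3. The liver count dropped to 174, 214 and 173 without liver JQ1 replicates 2 and 3 and liver vehicle replicate 3. The kidney-limited count dropped to 33 without liver JQ1 replicate 2. The shared count dropped to 16 without kidney JQ1 replicate 3, and to 22 without kidney vehicle replicate 1 or liver JQ1 replicate 2. The liver-limited count dropped to 19 without kidney JQ1 replicate 3, kidney vehicle replicate 2, liver JQ1 replicate 1 or replicate 2, to 22 without kidney vehicle replicate 1 and to 17 without kidney vehicle replicate 3. The opposite count was 1 without kidney JQ1 replicate 3, 8 without liver JQ1 replicate 1 and 5 without kidney JQ1 replicate 1 or liver vehicle replicate 2.

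The replicate numbers were not shown to pair the libraries: the 6 same-numbered correlations ran from -0.065 to 0.054, and 2 of 6 kidney libraries correlated best with the liver library of their number. A replicate block across the 4 groups gave 73 genes for the difference, 222 for kidney, 216 for liver, 22 shared and 22 liver-limited, and a replicate block within each drug group gave 71 for the difference. Over the values of the named genes, 1502 alternative values kept direction and side of the threshold, 418 kept direction and were no longer called, and none changed direction. The genes were chosen by their calls and the fits share libraries, so the kept direction is no separate test.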
